A study of Mus musculus with 4 samples.

Results

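The interleukin-6 (IL-6) family of cytokines and its signalling chain were followed by 10 genes. The tissue was nasal mucosa of young adult and aged C57BL/6J mice. The genes were the cytokines *Il6*, *Il11*, *Lif*, *Osm* and *Clcf1*, the receptor chains *Il6ra*, *Il6st* and *Osmr*, the transcription factor *Stat3* and the feedback inhibitor *Socs3*. They were chosen by name, and a probe was taken when its transcript accession belonged to one of them. All 10 were found, through 16 probes, among 45604 genes measured. Young adult mice were 8 weeks old and aged mice were 16 months old. The titles and sources of the samples name no transgene and no treatment. Each age was measured on 2 arrays, and each array was hybridized with Cy3-labelled RNA that had been pooled from 5 mice. The study's methods name fewer mice per age for gene analyses than 2 pools of 5 different mice would need. They do not say whether the array RNA came from these mice alone. The 2 pools of an age may therefore share mice. The P values measure the spread between pools, which may be technical.

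The labels also carry a description that names silica aspiration and lung. It fits neither the titles nor the study and was not used. All 8 markers of mature olfactory receptor neurons (ORNs) and all 6 of sustentacular cells, the supporting cells of the olfactory epithelium, were well above background on the 4 arrays. Of 6 lung epithelial markers, *Sftpa1* and *Sftpb* were well above background on no array, and the other 4 (*Sftpc*, *Sftpd*, *Napsa* and *Ager*) were on all 4 arrays. Between 63.1% and 76.8% of the spots of an array that were not controls were well above background, as the scanner software flags it, and 0 were saturated. The first young adult array and the first aged array shared a slide, and the other arrays were each on a slide of their own.

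IL-6 family cytokines bind a receptor that contains the signalling chain gp130, encoded by *Il6st*. IL-6 first binds its own receptor chain, encoded by *Il6ra*, and the complex then joins gp130. Kinases of the JAK family bound to the receptor phosphorylate STAT3, which enters the nucleus and switches on target genes. One of them is *Socs3*, whose product binds gp130 and the kinases and shuts the signal off. IL-6 is also a prominent member of the senescence-associated secretory phenotype, the mixture of factors released by senescent cells, and LIF is known in the olfactory epithelium as a signal that acts on neuronal progenitors after injury.

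The promoters of *Il6* and *Socs3* are shown because these genes stood at the ends of the chain, as ligand and as target, and held the largest and the second largest rise among the members. Each run holds the 250 bases before the transcription start, from RefSeq on GRCm38.p6, in the direction of transcription. The first is chr5:30012864-30013113 on the plus strand and the second is chr11:117969367-117969616 on the minus strand. Capitals mark matches, on either strand, to the AP-1 motif TGANTCA and the NF-kB motif in *Il6*, and to the STAT motif TTCNNNGAA in *Socs3*. None of the matches shown overlapped another.
Il6: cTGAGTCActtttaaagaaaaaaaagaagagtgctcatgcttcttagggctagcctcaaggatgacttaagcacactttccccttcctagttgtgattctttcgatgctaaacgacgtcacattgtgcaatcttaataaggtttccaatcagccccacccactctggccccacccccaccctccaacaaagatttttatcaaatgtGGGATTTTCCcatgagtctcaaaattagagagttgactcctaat
Socs3: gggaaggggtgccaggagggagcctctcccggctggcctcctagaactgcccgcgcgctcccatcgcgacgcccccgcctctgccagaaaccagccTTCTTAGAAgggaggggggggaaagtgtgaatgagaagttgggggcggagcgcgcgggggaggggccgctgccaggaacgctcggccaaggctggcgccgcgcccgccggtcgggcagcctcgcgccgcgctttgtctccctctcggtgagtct
In *Il6*, the AP-1 match began 249 bases before the start and the NF-kB match 44 bases before it. In *Socs3*, the STAT match began 154 bases before the start. Promoter entries were found for 8 of the 10 members, and *Osm* and *Clcf1* were not in the table used. The STAT motif was matched in 1 of these 8 genes and in 7.02% of all 32851 promoters over the same window. The AP-1 motif was matched in *Il6*, *Il11* and *Lif* and in 6.75% of all promoters. The NF-kB motif was matched in *Il6* and *Lif* and in 7.25% of all promoters. These matches describe letters only and do not show binding.

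*Il6* was higher in aged mice and was the member with the largest difference. Its normalized expression level, the quantile normalized intensity averaged over its 2 probes, was 32.9 and 39.3 in the young adult pools and 113 and 116 in the aged pools. Neither aged pool came near the young adult pools. The log2 fold change was 1.67 (standard error 0.12, 95% interval 1.30 to 2.04), a 3.18-fold higher level, with an FDR of 0.178 by limma over all genes. Here and below, a call needed P under 0.05 together with an FDR under 0.25. In young adult mice this level rests on dim probes, of which 1 was well above background on 1 array only, so the fold is approximate. The difference was 1.78 within the slide that carried an array of each age and 1.56 between the other arrays. The mean level computed here over the 4 arrays was 75.3. It was under the level limit of 100 in the study's methods for differentially expressed genes (DEGs). The study nonetheless listed *Il6* among its genes upregulated with age. It also reported higher *Il6* mRNA in the nasal mucosa of aged mice by quantitative PCR. In RNA of whole mucosa, fewer cells of a type and less RNA per cell cannot be told apart.

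The *Il6* probes were dim, and they differed in detection. Probe A_55_P1997756 had levels of 44.9 and 46.6 in young adult mice and 156 and 182 in aged mice, and was well above background on every array but the first young adult array. It was called higher, with a log2 fold change of 1.88 and an FDR of 0.160 (standard error 0.11). On the unnormalized scale its median signal was 84 over a local background of 65 on the first young adult array and 65.5 over 30 on the second. On the aged arrays it was 198 over 67 and 196 over 42. The raw signal in aged mice therefore stood 2.96 and 4.67 times above the local background, against 1.29 and 2.18 times in young adult mice. Local background was higher on the slide that carried both ages than on the other slides, and it did not separate the ages.

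Probe A_55_P2733612 had levels of 24.2 and 33.2 in young adult mice and 81.7 and 74.0 in aged mice. It was well above background only on the second aged array, so its young adult level is uncertain. The aged mean was also set against the lowest level of a probe well above background on each young adult array. Where the probe's own level was higher, that was used. The aged mean was 2.21-fold higher (FDR = 0.195 in the fit). This fold is not a lower bound, because probes that were not well above background could exceed that lowest level. On the first young adult array it was 37.1, and the other *Il6* probe stood at 44.9 there. The aged mean also includes 1 array on which the probe was not well above background. Both probes pointed the same way.

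**Figure D1:**
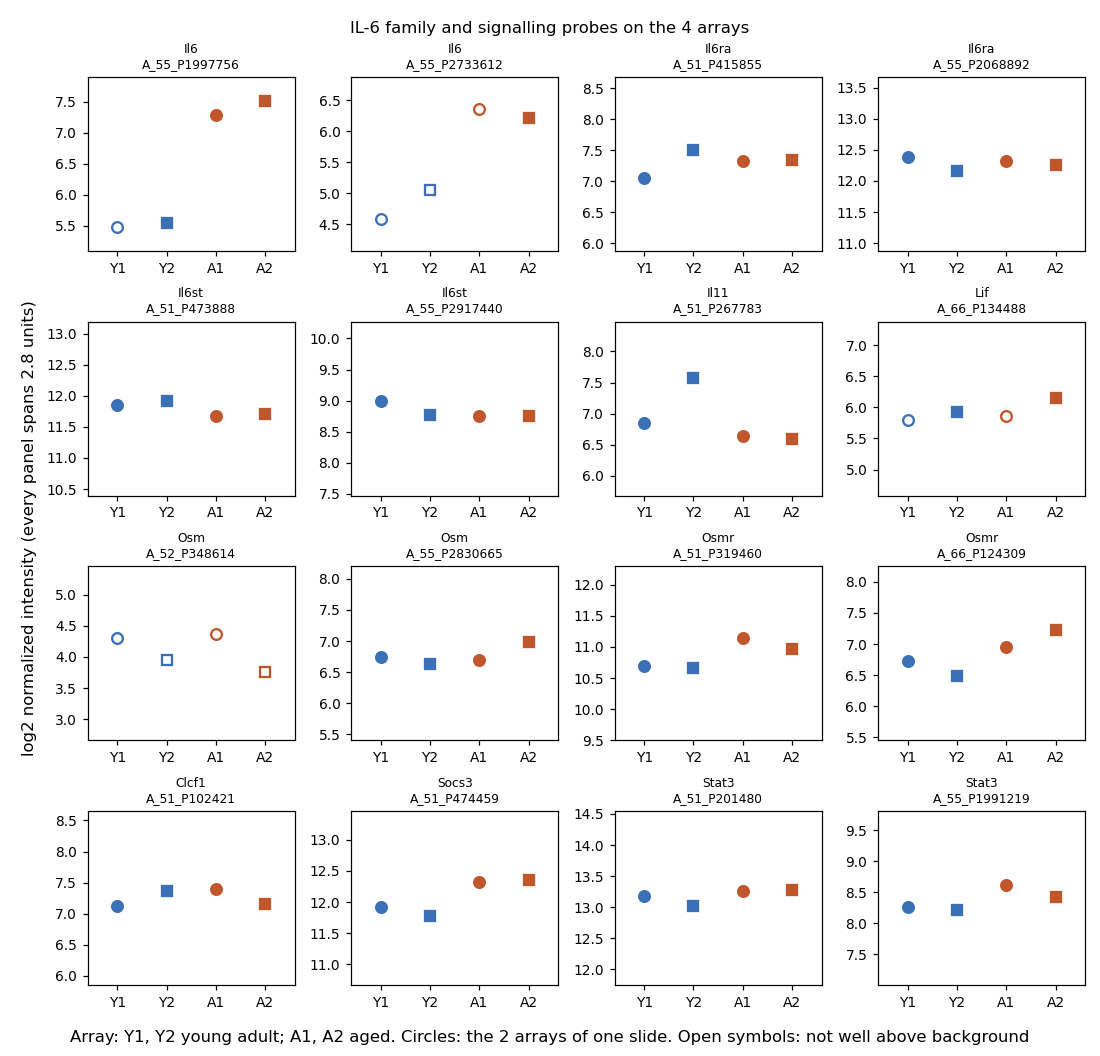
Log2 normalized intensity of the 16 probes of the members (vertical axes, each spanning the same 2.8 units) on the 4 arrays (horizontal axes, Y1 and Y2 young adult, A1 and A2 aged), with filled symbols where the probe was well above background and circles for the 2 arrays that shared a slide. The *Il6* probes show the widest gaps between the ages and, with *Lif* and an *Osm* probe, hold all the open symbols.

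The other cytokines did not pass the test. *Il11*, a cytokine best known for its action on stromal cells, had levels of 115 and 191 in young adult mice and 99.6 and 96.0 in aged mice. Both aged values were the lower ones, but the young adult arrays differed widely from each other, and the log2 fold change of -0.60 had a standard error of 0.29 (FDR = 0.504). The difference was -0.21 within the shared slide and -0.99 between the other arrays. *Lif* had levels of 55.9 and 61.0 in young adult mice and 58.4 and 71.4 in aged mice. Its single probe was well above background on 1 array of each age, the second in both cases, and the ages overlapped (log2 fold change 0.14, standard error 0.14, FDR = 0.712).

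Oncostatin M, the product of *Osm*, is made mainly by leukocytes. Its probe A_52_P348614 was well above background on no array, with a raw signal between 0.879 and 1.17 times the local background. The other probe, A_55_P2830665, was well above background on all 4 arrays, with levels of 107 and 99.0 in young adult mice and 104 and 126 in aged mice. These overlapped between the ages (log2 fold change 0.15, standard error 0.14, FDR = 0.682). *Clcf1*, which encodes a cytokine that acts through the ciliary neurotrophic factor receptor, had levels of 139 and 165 in young adult mice and 168 and 142 in aged mice. Its log2 fold change was 0.03 (standard error 0.15, 95% interval -0.43 to 0.49), and the sign was opposite in the 2 pairs of arrays, at 0.28 within the shared slide and -0.22 between the others.

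Of the receptor chains, *Osmr*, the specific chain of the oncostatin M receptor, lay higher in aged mice without passing the FDR limit. Its gene levels were 420 and 381 in young adult mice and 527 and 546 in aged mice. The ages did not overlap, and the log2 fold change was 0.42 (standard error 0.09, 95% interval 0.14 to 0.70, FDR = 0.275). Both probes had the same direction. Probe A_51_P319460 gave 1659 and 1621 against 2251 and 2003 (log2 fold change 0.37, FDR = 0.307), and probe A_66_P124309 gave 106 and 89.6 against 123 and 149 (log2 fold change 0.47, FDR = 0.368).

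The shared chain gp130 and the IL-6 receptor chain showed differences near 0. *Il6st* had levels of 1372 and 1298 in young adult mice and 1189 and 1201 in aged mice. Both aged arrays were lower, with a log2 fold change of -0.16 (standard error 0.08, 95% interval -0.40 to 0.08, FDR = 0.515), and its probes gave -0.19 and -0.13. *Il6ra* had levels of 841 and 916 in young adult mice and 906 and 891 in aged mice, which overlapped. Its log2 fold change was 0.03 (standard error 0.09, 95% interval -0.23 to 0.30, FDR = 0.891), so a rise or fall as large as that of *Il6* lies outside the interval. Its probes, A_51_P415855 and A_55_P2068892, gave log2 fold changes of 0.06 and 0.01.

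Downstream of the receptor, *Socs3* was higher in aged mice and lay at the FDR limit. Its single probe, A_51_P474459, had levels of 3888 and 3513 in young adult mice and 5124 and 5247 in aged mice, and was well above background on all 4 arrays. The lowest aged level exceeded the highest young adult level. The log2 fold change was 0.49 (standard error 0.09, 95% interval 0.21 to 0.77), with 0.40 within the shared slide and 0.58 between the other arrays. With the FDR taken over genes it was 0.251, just outside the limit. With the FDR taken over probes it was 0.240, just inside, from the same values. *Stat3* had levels of 1686 and 1572 in young adult mice and 1956 and 1847 in aged mice. The ages did not overlap, but the log2 fold change of 0.22 (standard error 0.09, 95% interval -0.04 to 0.49) had an FDR of 0.434. Its probes, which are annotated to different transcripts of the gene, gave 0.17 (A_51_P201480) and 0.28 (A_55_P1991219), with FDRs of 0.543 and 0.403. Without the probe sequences, whether either probe reads a single transcript is not known.

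**Figure D2:**
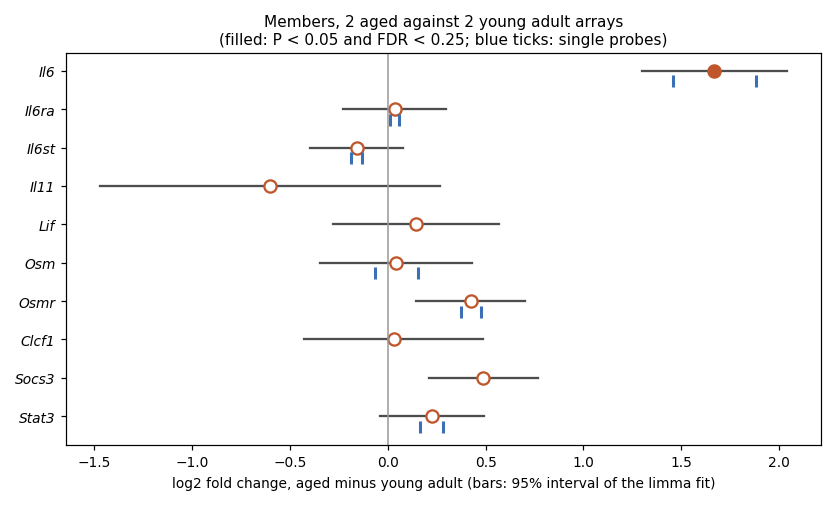
Log2 fold change of each member, aged minus young adult (horizontal axis), with the 95% interval of the limma fit as a bar, filled where P was below 0.05 and the FDR below 0.25, and blue ticks for the single probes of members with more than 1. The interval of *Il6* starts at 1.30, those of *Socs3* and *Osmr* also lie above 0, and the interval of *Il11* is the widest.

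Counted over the 10 members, 1 gene was called higher in aged mice and 0 were called lower. Over all genes tested, 1.65% were called higher and 2.33% were called lower. At an unadjusted P below 0.05, 3 members were higher (*Il6*, *Socs3* and *Osmr*) and 0 were lower, where 6.05% of all genes were higher and 7.08% were lower at the same limit. Both aged arrays lay above both young adult arrays for 4 members and below them for 2, and 4 overlapped. Such a separation in either direction was found for 46% of all genes, so the share among the members is a description only. The median log2 fold change of the members was 0.09, against 0.01 over all genes. Of the 16 probes, 3 were called higher (both *Il6* probes and the *Socs3* probe) and 0 lower, against 1.84% called higher and 2.65% called lower over all probes. With a level of at least 100 and a fold change of at least 1.5 added, 0 members passed at the levels computed here. Of all 45604 genes, 371 passed these limits as higher and 524 as lower. The members were chosen with earlier results of these data known, so these counts are a description only.

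The calls rested on having 2 arrays per age. When any 1 array was left out, 0 members and 0 of all genes were called by limma, while between 1 and 3 members were higher at an unadjusted P below 0.05. Without the first young adult array, *Il11* was also lower at that limit (log2 fold change -0.97, FDR = 0.440). In these fits the lone array of an age is assumed to vary like the arrays of the other age. Under those fits the log2 fold change of *Il6* lay between 1.56 and 1.76. An exact permutation test of 2 against 2 arrays cannot give a two-sided P below 0.333.

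The size of the *Il6* difference moved with the background correction, and the calls of *Socs3* and *Osmr* moved with the processing. *Il6* was higher in each of 17 refits and within the shared slide, with log2 fold changes from 0.94 to 2.95, and was called in 12 of the refits. It was lowest with 50 added to the background-corrected signal, which compresses dim probes, and highest with the scanner software's own processed signal. *Socs3* stayed between 0.40 and 0.56 and was called in 10 of the 17, and *Osmr* stayed between 0.33 and 0.49 and was called in 7. *Stat3* stayed between 0.17 and 0.27 and was called in 2.

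**Figure D3:**
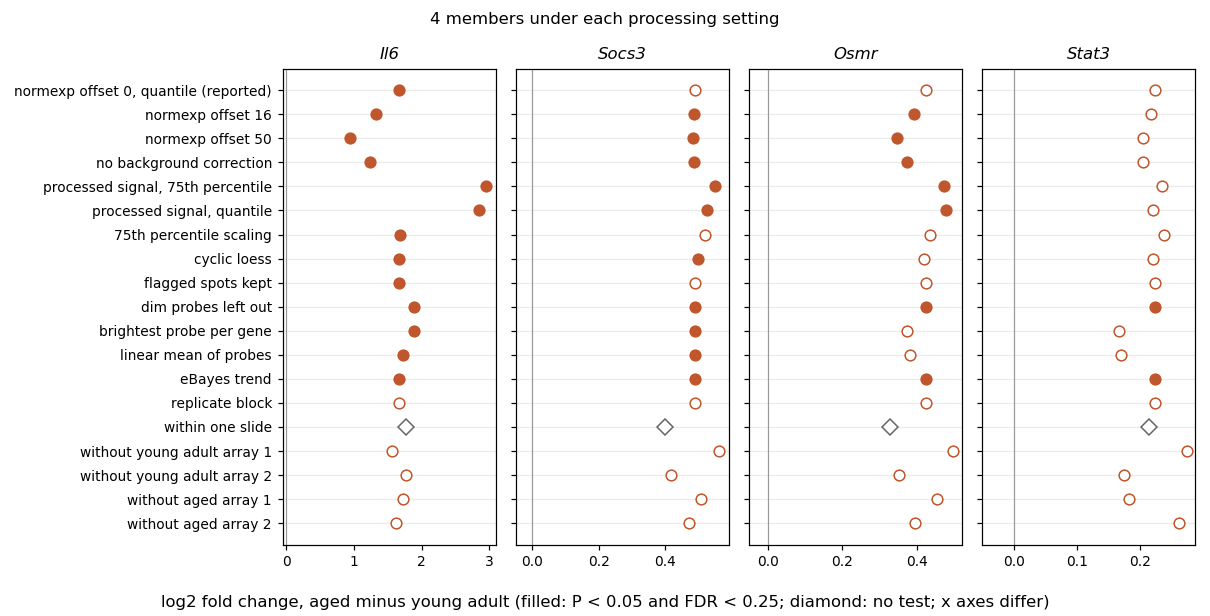
Log2 fold change, aged minus young adult, of *Il6*, *Socs3*, *Osmr* and *Stat3* (horizontal axes, which differ) under the reported processing and each alternative (rows), filled where P was below 0.05 and the FDR below 0.25, with a diamond for the difference within the shared slide, which has no test. All points lie above 0, *Il6* spreads from 0.94 to 2.95, and no point is filled in the 4 rows that leave out an array.

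The remaining genes of the pathway held 27 further ligands, receptors, kinases, adaptors, inhibitors and sheddases, and 0 of them were called in either direction. At an unadjusted P below 0.05, 4 were lower in aged mice and 0 were higher, against 7.08% and 6.05% of all genes. The median log2 fold change was -0.05, with 10 genes above and 17 below 0. This list, like the members, was chosen with earlier results of these data known. Among receptors, *Lifr*, the LIF receptor chain, had a log2 fold change of 0.12 (FDR = 0.595). *Il11ra1*, the IL-11 receptor chain, had -0.21 (FDR = 0.480), and *Cntfr*, which binds ciliary neurotrophic factor, had 0.16 (FDR = 0.517). The ligand gene *Cntf*, ciliary neurotrophic factor, had -0.16 (FDR = 0.514).

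The kinases that sit on these receptors did not pass the test either. *Jak1* had levels of 5456 and 4558 in young adult mice and 5923 and 5751 in aged mice, with a log2 fold change of 0.23 (FDR = 0.546). *Jak2* and *Tyk2* had 0.01 and 0.05. The inhibitor *Socs1* had levels of 228 and 255 against 204 and 202, with a log2 fold change of -0.25 (FDR = 0.424), opposite in sign to that of *Socs3*. Differences between the changes of 2 genes were not tested. *Ptpn6*, which encodes a phosphatase of blood cells, had -0.22 (FDR = 0.576). The proteases that shed the IL-6 receptor chain, encoded by *Adam10* and *Adam17*, had -0.12 (FDR = 0.605) and -0.05 (FDR = 0.890).

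A list of 36 genes known to be induced by IL-6 and STAT3 or in the acute phase response did not move in 1 direction. In it 3 genes were called higher, 1 was called lower and 32 were not called, against 1.65% called higher and 2.33% called lower over all genes. The list was chosen with earlier results of these data known, so its counts beside those of all genes are a description only. At an unadjusted P below 0.05, 6 were higher and 4 were lower, against 6.05% and 7.08% of all genes, and the median log2 fold change was 0.04. *Serpina3n*, an acute phase protease inhibitor, had levels of 1733 and 1706 in young adult mice and 9946 and 9608 in aged mice. Its log2 fold change was 2.51 (standard error 0.08, FDR = 0.153). *Lcn2*, an iron-sequestering defence protein, had levels of 2151 and 2195 against 4688 and 5068 (log2 fold change 1.17 with a standard error of 0.09, FDR = 0.178). *Cebpd*, a transcription factor induced by STAT3, had 7868 and 8879 against 12848 and 13819 (log2 fold change 0.67, standard error 0.11, FDR = 0.221). For each of these genes the aged arrays lay clearly above the young adult arrays, and each passed the study's limits on level and fold.

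The gene called lower was *Cp*, ceruloplasmin, a copper-carrying acute phase protein. Its levels were 1104 and 1064 in young adult mice and 743 and 761 in aged mice, and its log2 fold change was -0.53 (standard error 0.08, FDR = 0.210). Of the acute phase genes, *Saa3*, *Fgb*, *Apcs* and *Reg3b* were well above background on no array.

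**Figure D4:**
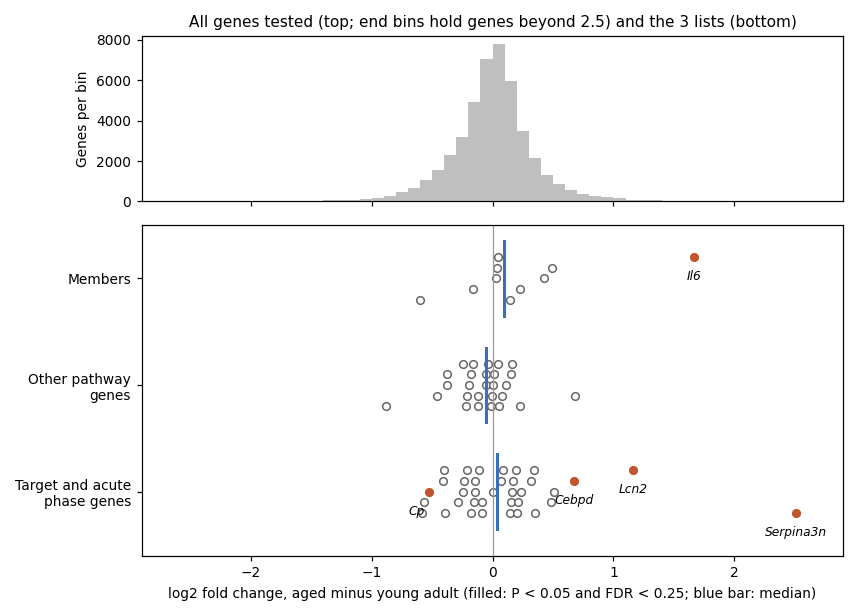
Top, number of genes in each bin of log2 fold change (aged minus young adult) over all 45604 genes; bottom, the single genes of the 3 lists on the same axis, filled and named where called, with the median of each list as a blue bar. The medians of 0.09, -0.05 and 0.04 lie near 0, and *Serpina3n*, *Il6* and *Lcn2* stand apart on the right.

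Markers of cells that can make or answer IL-6 also differed between the ages. Of 8 fibroblast markers, 5 were called lower in aged mice and 0 higher, and all 8 lay lower. Their summed level was 249603 and 224993 in young adult mice and 125560 and 117542 in aged mice. Of 8 endothelial markers 5 were called lower and all 8 lay lower (summed level 14136 to 14181 in young adult and 8923 to 9291 in aged mice). Of 8 macrophage markers 3 were called lower and all 8 lay lower (10711 to 11166 and 8481 to 8489). Of 7 neutrophil markers measured, 3 were called lower, 6 lay lower and 1, the abundant *Csf3r*, lay higher. Their sum, which *Csf3r* dominated, overlapped (125345 to 130951 and 130478 to 130532). Every measured marker of these 4 lists was well above background on all 4 arrays, except the neutrophil gene *Ngp* on 1 aged array. Over all genes, 2.33% were called lower and 22129 of 45604 lay lower. The marker lists were chosen with earlier results of these data known, so these shares are a description only. The part of the cells of these 4 lists in the results above was not tested.

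Mature ORN markers lay higher in aged mice for all 8 genes, with 1 called, and their sum was 454172 to 465202 in young adult and 509189 to 516644 in aged mice. Over all genes, 23474 of 45604 lay higher and 1.65% were called higher. By staining for the marker protein OMP, the study counted fewer mature ORNs in the aged epithelium. The normalized RNA levels here are relative and do not count cells. Of 6 sustentacular markers 1 was called higher and 0 lower, 3 lay above both young adult arrays and 2 below them (*Sult1c1*, log2 fold change -0.26, FDR = 0.339, and *Cbr2*, -0.07), and the sum was 826363 to 829420 and 849387 to 860952. Whether *Il6*, *Socs3* or *Osmr* moved with the share of these cells was not tested.

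The 5 genes whose pattern over the 4 arrays was nearest to that of *Il6* were *Twist2*, *Nppc*, *Sult6b1*, *H2-M10.3* and *Olfr1508*. Likeness was the Euclidean distance between log2 levels centred on each gene's own mean, over 16203 genes with a symbol and a probe well above background on both aged arrays. The distances ran from 0.10 for *Twist2* to 0.21 for *Olfr1508*. *Twist2*, a transcription factor of mesenchymal cells, had levels of 202 and 220 in young adult mice and 639 and 658 in aged mice. *Nppc*, which encodes C-type natriuretic peptide, had 131 and 138 against 441 and 466. With 4 arrays the distance mostly picks genes with a similar rise, and their log2 fold changes lay between 1.60 and 1.77.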

How the data were processed

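Total RNA of nasal mucosa, which the sample titles call olfactory epithelium, was hybridized to 4 Agilent one-color arrays, 2 per age. The authors deposited scanner output (Feature Extraction 11.0.1.1) not normalized between arrays: per spot, a median intensity, a median local background intensity, a background-subtracted processed intensity and flags. The deposited series table held the same processed intensity. The submitters' notes name R 3.2.1.

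Background was then corrected on these intensities by limma 3.58.1 (R 4.3.3) with normexp at an offset of 0. The study's methods do not name the background method. Control spots and outlier flags (88 to 118 spots per array) were left out, spots of a probe averaged, and log2 values quantile normalized. Probes of a gene were averaged. Of 56605 probes, 32994 (58.3%) matched a RefSeq gene (GRCm38.p6) by accession, without versions. Array coordinates were not used.

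Ages were compared with limma (lmFit and eBayes, no covariates, 4 arrays) over all 45604 genes, and over 56593 probes with values on all arrays. Calls needed P under 0.05 and an FDR (Benjamini-Hochberg) under 0.25. The residual degrees of freedom were 2. The fit was also run on simulated arrays drawn independently, and the outcome is not reported here. A probe was well above background by the scanner's flag. Signal over background and the number of arrays limit the precision.

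Alternatives were other background corrections, scalings, probe summaries and limits, a filter on dim probes, an eBayes trend, a replicate block, the shared slide alone and each array left out. Members, gene lists and marker lists (of ORNs, sustentacular, lung, fibroblast, endothelial, macrophage, neutrophil, T and B cells) were chosen with earlier results of these data known. The genes named were all members, a fixed set of pathway genes (2 of them are not reported here), any pathway gene called, the 5 called target genes with the largest rise and the 5 with the largest fall, and the 5 genes nearest to *Il6*. *Saa3*, *Fgb*, *Apcs*, *Reg3b* and the marker genes were named outside this rule, after their values were seen.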

Additional observations from a re-analysis of the deposited data

How the results depend on the processing

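The direction of *Il6*, *Socs3*, *Osmr*, *Stat3*, *Il6st* and *Il11* was the same under every alternative run, and the counts of calls were not. Members called higher numbered 1 as reported, 3 with a normexp offset of 16 or 50, no background correction, or the processed signal (either scaling), 2 with cyclic loess, the brightest probe or linear means, and 4 with dim probes left out or an eBayes trend. They numbered 0 at FDR below 0.05, under the study's level and fold limits, and with the replicate block, and 0 to 0 with 1 array left out. A member (*Il6st*) was called lower, 1 in all, only with the eBayes trend. Calls over all genes also changed with the setting, as given below. Calls over all probes were not counted under the alternatives, so the member probe counts that follow are a description only. Member probes called higher, 3 as reported, numbered 4 with an offset of 50, no background correction or the processed signal at the 75th percentile, 5 with the quantile normalized processed signal or without dim probes, 7 with the trend, 0 at FDR below 0.05 and 0 with any array left out, and 1 probe was lower with the trend or without dim probes.

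Other pathway genes called lower numbered 1 (offset 16, no background correction), 2 (offset 50), 3 (processed signal, quantile), 5 (no dim probes) and 4 (trend), and 1 was higher with 75th percentile scaling or the trend. Target genes called higher, 3 as reported, numbered 4 (offset 16), 6 (offset 50; processed signal, quantile), 5 (no background correction) and 8 (no dim probes; trend), and 0 at FDR below 0.05. Those called lower, 1 as reported, numbered 3 (offset 16), 4 (offset 50, no background correction), 5 (processed signal, quantile), 2 (cyclic loess), 6 (no dim probes) and 8 (trend), and 0 at FDR below 0.05 or under the level and fold limits. With 1 array left out, both ran from 0 to 0. Over all 45604 genes, 754 were called higher and 1063 lower as reported. The counts were 1298 and 1691 (offset 16), 2107 and 2475 (offset 50), and 1788 and 2239 (no background correction). With the processed signal they were 645 and 861 (75th percentile) and 2029 and 2343 (quantile). Cyclic loess gave 954 and 1378, and 75th percentile scaling 584 and 826. The brightest probe gave 1004 and 1411, linear means 1134 and 1599, and the trend 3612 and 3518. Without dim probes, 3445 and 3706 of 29495 genes were called. At FDR below 0.05 or with the replicate block, 0 of all genes were called.

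With the replicate block, 0 members, 0 member probes and 0 target genes were called in either direction, as were 0 of all genes. *Il6* had an FDR of 0.433, the smallest FDR over all genes. Other genes shared this value, among them *Serpina3n*, *Lcn2*, *Cebpd*, *Cp* and *Socs3*. The numbers were not shown to pair the arrays: deviations of same-numbered arrays correlated at -0.08. Slide as a random block could not be fitted.

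Log2 fold changes near 0 changed sign. With the processed signal (75th percentile, then quantile), the first *Il6ra* probe gave -0.038 and -0.031, the undetected *Osm* probe 0.56 and 0.041, and *Clcf1* (gene and probe) -0.024 and -0.012. *Il6ra* gave -0.0045 with the quantile normalized processed signal. *Jak2* gave -0.0024 (offset 50), -0.0014 (processed signal, 75th percentile), -0.0033 (cyclic loess), -0.078 (brightest probe) and -0.054 (linear mean). With 1 array left out, the ranges were -0.026 to 0.097 for *Il6ra*, -0.173 to 0.288 and -0.094 to 0.121 for its probes, -0.072 to 0.159 for *Osm*, -0.367 to 0.245 for its undetected probe, -0.097 to 0.154 for *Clcf1* and its probe, -0.092 to 0.108 for *Jak2* and -0.205 to 0.097 for *Adam17*. The cause of these changes was not tested. Both *Il6* probes, the *Lif* probe and 1 of the *Osm* probes were not well above background on every array, which limits their values.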

Other observations

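Lymphocyte markers, which belong to no comparison above, gave no calls by limma. Of 7 T cell markers measured, 0 were called and 0 had an unadjusted P below 0.05, with a median log2 fold change of 0.001. Their summed level was 1132 and 1466 in young adult mice and 1191 and 1241 in aged mice, which overlapped. *Cd8a*, which marks cytotoxic T cells, was well above background on no array. Of 6 B and plasma cell markers measured, 0 were called and 0 had an unadjusted P below 0.05, with a median of -0.11. *Jchain*, which joins secreted antibodies, had levels of 7595 and 7297 in young adult mice and 7358 and 6196 in aged mice. Of the 6 lung epithelial markers, 2 were called lower (*Sftpc* and *Napsa*) and 0 higher. *Sftpc*, the surfactant protein of alveolar cells, had levels of 370 and 349 in young adult mice and 205 and 220 in aged mice. Among all genes tested, 1.65% were called higher and 2.33% were called lower. At an unadjusted P below 0.05 by limma, the shares were 6.05% higher and 7.08% lower. These marker lists were chosen with earlier results of these data known, so their counts are a description only.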
